A study of Canis lupus familiaris with 30 samples.

Results

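The calcitonin peptide family and the calcitonin receptor were followed through 30 canine thyroid carcinomas (TC). The members were the rows of the gene count table whose symbol was CALCA, CALCB, CRSP-2, CRSP-3, CRSP-4 or CALCR, and all 6 were found, once each, among 30424 genes. Their Ensembl identifiers were ENSCAFG00000008562 for CALCA, ENSCAFG00000008546 for CALCB, ENSCAFG00000008550 for CRSP-2, ENSCAFG00000004868 for CRSP-3, ENSCAFG00000002317 for CRSP-4 and ENSCAFG00000002033 for CALCR.

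Calcitonin is the hormone of the parafollicular C cells of the thyroid, which lie beside the thyroglobulin-producing follicles, and it is the usual tissue marker of medullary carcinoma. CALCA gives rise by alternative splicing to calcitonin or to calcitonin gene-related peptide, CGRP, a vasodilator peptide of neurons, and in humans CALCB encodes a second CGRP. The calcitonin receptor-stimulating peptides (CRSP) are relatives of CGRP found in dogs, pigs and some other mammals but not in humans or rodents. CRSP-1, a synonym of canine CALCB in RefSeq, was first described as a peptide that stimulates the calcitonin receptor. CALCR is that receptor, a G protein-coupled receptor best known in osteoclasts, where calcitonin restrains bone resorption. A receptor activity-modifying protein (RAMP) turns it into an amylin receptor, and the related CALCRL with RAMP1 forms the CGRP receptor.

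RNA was extracted from frozen pieces of 30 tumors, each of a different dog and each sequenced once. The sample labels call every sample tumor tissue and give neither the histologic type nor the calcitonin immunohistochemistry (IHC), so the 30 tumors form 1 group here and no level was tested between types. The study's own records, matched by tumor name, list TC1020, TC1473, TC1601, TC1936 and TC2289 as medullary (MTC) and the others as follicular (FTC), and list calcitonin IHC as positive in TC1473, TC1601, TC1936 and TC2289 and negative in TC1020 and in each of the others. Those types were assigned with calcitonin staining or transcripts in view, so the order of the tumors by CALCA is a description. Staining was done on fixed tissue, not on the frozen piece that was sequenced. In bulk tissue, fewer cells of a type and less RNA per cell cannot be told apart.

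The reads assigned to genes numbered 12288945 in the smallest library and 45148677 in the largest. The level of a gene is log2(normalized read count + 1), where the count is divided by the tumor's size factor. A floor of 3 counts was set per tumor, as an allowance for reads missed where none is seen. It stood at a level of 1.51 to 2.38 in 29 of the tumors and at 3.56 in TC538, the smallest library. Intervals are 95% intervals (exact Poisson for a count, Clopper-Pearson for a share or a ratio) and cover counting error only, since each tumor is a single library. Where no read is seen, the Poisson interval reaches somewhat above the floor. The tumors were clustered on 729 variable genes, from which the members and the genes of the marker and pathway lists read below had been left out. This gave a larger branch of 25 tumors and a smaller branch of 5, which were the 5 recorded as MTC. The branches were used to keep correlations within a single branch. The larger branch included TC1088, which the study treated as an outlier for its loss of the thyroid transcription factor NKX2-1. The study left that tumor out of its differential expression analysis, but it was kept here. Its mean level over 11 thyroid follicular genes was 2.84, against a branch median of 12.62.

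CALCA was the member found in most tumors, over the floor in 27 of 30. Its count was 586358 in TC1936, 439003 in TC1020, 247126 in TC1473 and 132876 in TC1601, which were levels of 19.24, 18.70, 17.78 and 16.80. In these 4 tumors, the single gene took 2.33%, 1.82%, 0.939% and 0.456% of all reads counted on genes. The fifth in the order was TC22 of the larger branch, with 10889 counts and a level of 12.90, and the step down to it from TC1601 was 14.9-fold. TC812 (4296 counts), TC1213 (2379 counts), TC1744 (1292 counts), TC2089 (761 counts), TC2011 (768 counts) and TC2402 (474 counts) came next in level. Over the 25 tumors of the larger branch the lowest count was 0, the median 86 and the highest 10889. TC1241 and TC902 had a CALCA count of 0 and TC1088 a count of 1, so no CALCA was detectable in these 3 at their depth.

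TC2289 stood apart from the other tumors of its branch in CALCA. It had 95 counts of the gene, 0.000357% of its library (0.000289% to 0.000437%), and took place 15 of 30 in the order. Its level of 6.94 lay between TC1123 (7.25) and TC1218 (6.90) of the larger branch, and its counting interval overlapped those of both. TC1601, the next higher tumor of the smaller branch, had 937-fold more CALCA after normalization. Without TC2289, the highest and lowest CALCA values of the smaller branch were 5.44-fold apart, and with it they were 5095-fold apart. In TC2289, 26595783 reads were counted on genes in all, 97178 of them on CRSP-2.

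**Figure D1:**
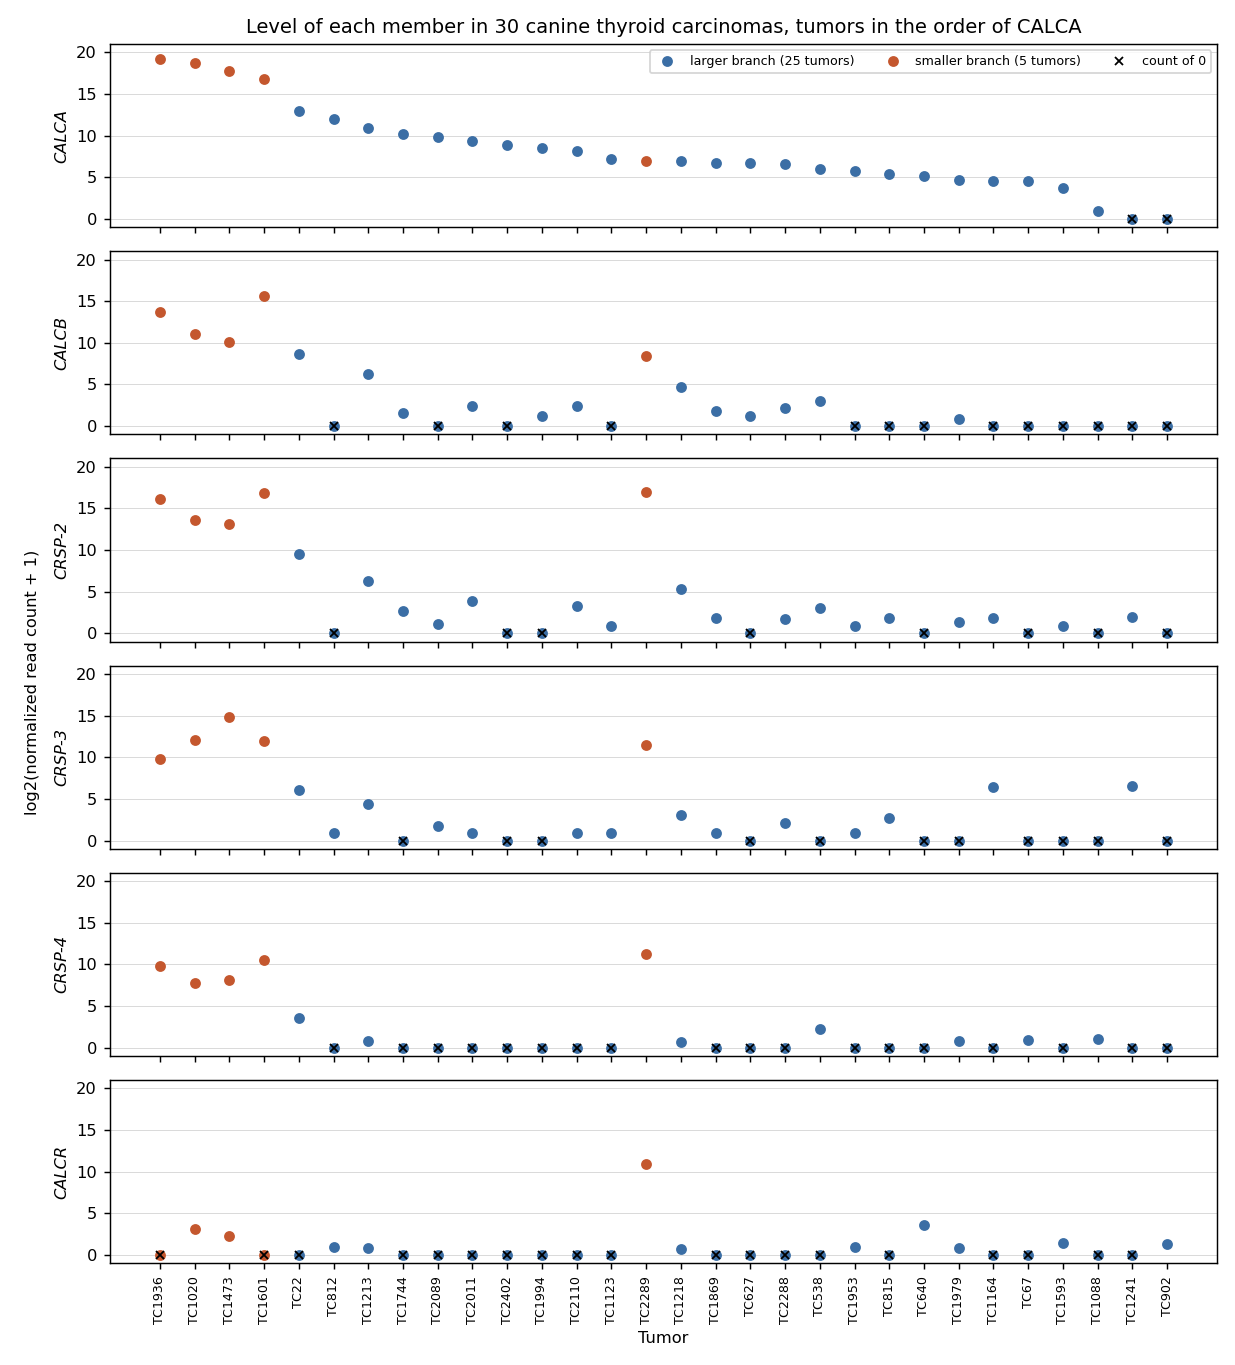
Level of each member, as log2(normalized read count + 1), in the 30 tumors ordered from left to right by CALCA; orange points are the 5 tumors of the smaller branch, blue points the 25 of the larger branch, and crosses mark a count of 0. TC2289 sits at 6.94 for CALCA but is the highest tumor for CRSP-2 (16.93), CRSP-4 (11.20) and CALCR (10.94).

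CALCB, which RefSeq also names CRSP-1, was over the floor in 10 tumors against 27 for CALCA. Its count was 59189 in TC1601, 12777 in TC1936, 2139 in TC1020, 1160 in TC1473, 573 in TC22 and 277 in TC2289. TC22 and TC2289, at levels of 8.66 and 8.48, had overlapping counting intervals, so the 2 branches were not separated by this gene. TC1213 had 92 counts and TC1218 had 42, and every other tumor had 5 or fewer. In the larger branch 20 of 25 tumors were at or under the floor, 13 of them at 0. Within the smaller branch, the highest and lowest values were 143-fold apart, and TC1601 alone exceeded the next tumor by 3.76-fold.

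CRSP-2 was high in all 5 tumors of the smaller branch, TC2289 included. Its count was 97178 in TC2289, 132936 in TC1601, 69402 in TC1936, 13145 in TC1020 and 10056 in TC1473, and after normalization TC2289 was the highest (level 16.93) and TC1473 the lowest (13.16) of the 5. Their normalized counts were 13.6-fold apart, a narrower span than that of CALCA or CALCB over the same 5 tumors. Without TC2289, CRSP-2 spanned 12.5-fold, which was wider than CALCA (5.44-fold) and narrower than CALCB (48.1-fold). TC22 followed with 1040 counts (level 9.52), a step of 12.5-fold below TC1473. TC1213 had 99 counts, TC1218 had 61, TC2011 had 16 and TC2110 had 10, and 19 of 25 tumors of the larger branch were at or under the floor.

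CRSP-3 had another order. TC1473, the lowest of the smaller branch for CRSP-2, was the highest for CRSP-3 with 32106 counts (level 14.83), 6.94-fold above the next tumor. TC1020 (4350 counts) and TC1601 (4785 counts) had overlapping intervals at levels of 12.04 and 12.00, TC2289 had 2252 counts and TC1936 had 802. The next places were taken by TC1241 (91 counts, level 6.53), TC1164 (63 counts, level 6.37) and TC22 (94 counts, level 6.07), each overlapping its neighbour in the order. TC1241 had a CALCA and a CALCB count of 0 and a CRSP-2 count of 3, and TC1164 had 18 counts of CALCA, 0 of CALCB and 2 of CRSP-2. CRSP-3 made up 96.8% (91.0% to 99.3%) of the family's counts in TC1241 and 75.9% (65.3% to 84.6%) in TC1164. In the RefSeq annotation of the UU_Cfam_GSD_1.0 assembly, CALCB, CRSP-3, CRSP-2 and CALCA lie in this order on one chromosome, and CRSP-3 overlaps CALCB. The counts were made per Ensembl gene on CanFam3.1, and whether the genes lie or overlap in the same way there was not checked. The members are related in sequence, the strand setting of the counting is not given in the sources used here, and how reads were divided among these genes was not tested.

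CRSP-4 was the rarest of the peptide genes. Its count was 1830 in TC2289, 1762 in TC1601, 821 in TC1936, 297 in TC1473 and 230 in TC1020, with levels from 11.20 down to 7.80. TC22 had 16 counts and the other 24 tumors of the larger branch had 1 or none. The gene lies apart from the other peptide genes, overlapping SCIN and on the same chromosome as CALCR in the RefSeq annotation. Beside CRSP-2 it moved in a narrow band, with 0.0188 CRSP-4 counts per CRSP-2 count in TC2289, 0.0133 in TC1601, 0.0118 in TC1936, 0.0175 in TC1020, 0.0295 in TC1473 and 0.0154 in TC22. The interval of TC22 (0.00876 to 0.0251) took in 4 of these other values, all but that of TC1473.

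All 5 peptide genes exceeded the floor in 6 tumors, the 5 of the smaller branch and TC22. The family's counts were divided among the genes in different ways in these tumors. Because longer transcripts give more reads, the shares below compare the same gene between tumors, not the genes with each other. CALCA made up 95.7% of the family's counts in TC1020, 87.5% in TC1936, 86.3% in TC22 and 85.0% in TC1473. TC1601 divided its counts between CALCA (40.1%), CRSP-2 (40.1%) and CALCB (17.9%). In TC2289, CRSP-2 took 95.6% (95.5% to 95.7%) and CALCA 0.0935% (0.0756% to 0.114%). CRSP-3 had its largest share of the 6 tumors in TC1473, with 11.0% against 0.120% to 2.22% in the other 5.

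The number of CRSP-2 counts per CALCA count set this out as a ratio. It was 0.0299 in TC1020, 0.0407 in TC1473, 0.118 in TC1936, 1.00 in TC1601 and 1023 in TC2289, where the interval ran from 837 to 1264. In TC22 it was 0.0955 (0.0895 to 0.102), in TC1213 0.0416 (0.0337 to 0.0509) and in TC1218 0.316 (0.233 to 0.424). TC2110 stood at 0.0307 (0.0146 to 0.0571). Other tumors of the larger branch had CALCA with little or no CRSP-2. TC812 had 4296 CALCA counts beside 0 of CALCB, CRSP-2 and CRSP-4 and 1 of CRSP-3, which allows at most 0.000859 CRSP-2 counts per CALCA count. TC1744 stood at 0.00464 (0.00170 to 0.0101), TC2089 at 0.00131 (3.32e-05 to 0.00734), and TC2402, with 474 CALCA counts and no other peptide gene, below 0.00781. The upper limits of TC812, TC1744, TC2089 and TC2402 were all below the lower limit of TC1213, so the ratio was not shared by the larger branch. Of its 22 tumors with at least 10 CALCA counts, 5 also had at least 10 of CRSP-2, 4 of CRSP-3, 3 of CALCB and 1 of CRSP-4.

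**Figure D2:**
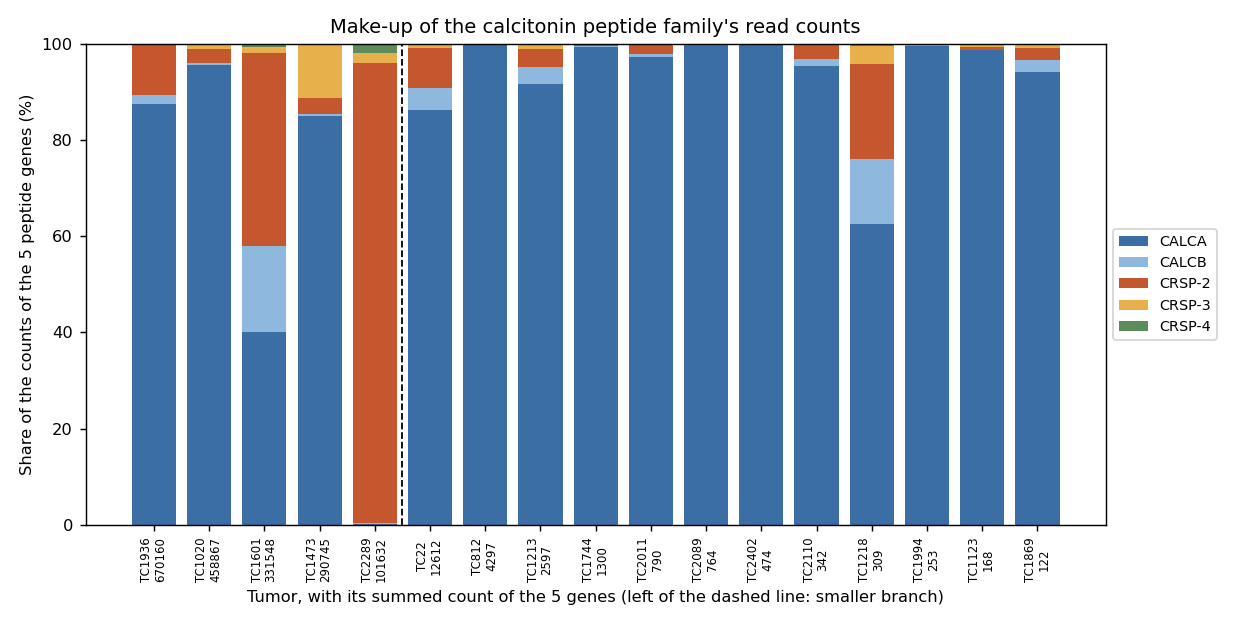
Share of each of the 5 peptide genes, in percent of their summed read count, in the 17 tumors with at least 100 such counts; the sum is printed under each tumor, and the 5 bars left of the dashed line are the smaller branch. CALCA fills most of each bar except in TC1601 (40.1%) and TC2289 (0.0935%), where CRSP-2 takes 40.1% and 95.6%.

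CALCR, the receptor, was found in quantity in a single tumor. TC2289 had 1532 counts and a level of 10.94. TC640 came next with 11 counts, TC1020 had 8 and TC1473 had 4, and in each of the other 26 tumors the count was at or under the floor, 19 of them at 0. The normalized count of TC2289 was 186-fold that of TC640. TC1601, TC1936 and TC22, which had abundant CALCA, had a CALCR count of 0. TC2289 was also the tumor of the smaller branch with the least CALCA. Its normalized count of CRSP-2 was 1.09-fold that of TC1601, which had more CRSP-2 by raw count and by share of the library (0.456% against 0.365%).

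Osteoclast genes were read beside CALCR, since osteoclasts carry this receptor. In TC2289, OCSTAMP and DCSTAMP, needed for osteoclast fusion, had counts of 0, MMP9 had 5, and ACP5, the tartrate-resistant phosphatase, had 37, the lowest ACP5 count of the 30 tumors. CTSK (699 counts) and TNFRSF11A (147 counts) lay within the range of the larger branch, 468 to 7772 and 32 to 819. ATP6V0D2, a proton pump subunit, was the exception among the 7 genes, with 4202 counts in TC2289 against 2 to 658 in the other 4 tumors of the smaller branch and 0 to 42 in the larger.

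The related receptor and ligand genes did not share a pattern across the branches. CALCRL had 98 to 694 counts in the smaller branch and 134 to 2600 in the larger, and RAMP1 had 51 to 2742 and 88 to 9665, so the CGRP receptor's genes were counted in every tumor and the branches overlapped. In TC2289 there were 98 counts of CALCRL and 536 of RAMP1. RAMP2 and RAMP3 had no row under these symbols. IAPP, the amylin gene, had 22 counts in TC1020, 4 in TC1473 and 0 in the other 28 tumors. ADM (adrenomedullin) had 21 to 244 counts in the smaller branch and 14 to 146 in the larger. ADM2 had 3 to 858 in the smaller branch and 319 to 186286 in the larger, its lowest count being in TC2289. CRCP, a protein that couples the CGRP receptor to its signal, had 592 to 1286 and 300 to 1357.

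The genes of the enzymes that make active peptides from a prohormone had counts in every tumor of both branches, though as few as 1 (PCSK1) in the larger. In the smaller branch, the convertases PCSK1 and PCSK2 had 1912 to 49358 and 6127 to 72941 counts. CPE, which trims the cut ends, had 5896 to 36640 there, and SCG5, the chaperone of PCSK2, had 5636 to 20828. PAM, which amidates the last residue of calcitonin and CGRP, had 22599 to 87569. The largest counts of the larger branch were 451 for PCSK1, 1720 for PCSK2, 814 for CPE, 1351 for SCG5 and 22534 for PAM. PCSK1N, a PCSK1 inhibitor and the last of the 6 genes, overlapped between the branches, with 21 to 1018 counts in the smaller and 3 to 979 in the larger. What share of all genes did not overlap between the branches was not computed, so these ranges are not shown to be particular to processing genes. TC2289 had 13593 counts of PCSK1, 6127 of PCSK2, 17959 of CPE and 27523 of PAM, so these genes were present in the tumor with little CALCA. CASR, the calcium-sensing receptor through which calcium releases calcitonin from C cells, had 10067 to 47292 counts in the smaller branch and 1 to 593 in the larger, where the 593 were in TC2288 together with 25445 counts of the parathyroid hormone gene PTH.

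Of the 13 C-cell genes read, 9 had a level in TC2289 above every tumor of the larger branch. The share of all genes with such a level in TC2289 was not computed, so the 9 are a description. RET, a receptor tyrosine kinase of C cells, had 9319 counts in TC2289 and 9022 to 21691 in the other 4 tumors of its branch, and SNAP25, a release protein, had 5429 and 2006 to 7985. SCG2, a granin of secretory granules, reached 159262 counts in TC2289, the highest of all tumors. SCG3, CHGB, SYP, SYT4, ISL1 and DDC were the others of the 9. GFRA4, a co-receptor of RET, was low with 41 counts in TC2289 and 4 in TC1473 against 2266 to 13927 in the other 3. SYT1 (8 counts), SST (96 counts) and GRP (0 counts) in TC2289 did not exceed the larger branch either, and across the smaller branch SYT1 ran from 4 to 257, SST from 0 to 38249 and GRP from 0 to 231. The follicular gene TG, thyroglobulin, had 65 counts in TC2289, whereas TC1601 had 248274 counts of TG.

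TC22, the tumor of the larger branch with the most CALCA, CALCB, CRSP-2 and CRSP-4, was also the highest of the 25 for 5 of the 13 C-cell genes read. These were GFRA4 (79 counts), SCG2 (573 counts), CHGB (375 counts), SYT4 (20 counts) and SNAP25 (51 counts). The others were highest elsewhere in the branch, RET in TC815, SCG3 in TC2110, and SYP and DDC in TC1979. ISL1 and SYT1 were highest in TC1088, SST in TC1593 and GRP in TC1994. For how many of all genes TC22 was the highest of the branch was not computed. The mean level of the list was 5.64 in TC22, with a range of 2.33 to 5.64 and a median of 3.06 in the larger branch and 9.91 to 11.49 in the smaller. The follicular genes were counted too, with a mean level of 13.16 over 11 genes against a median of 12.62 in the larger branch. TG itself had 151907 reads and a level of 16.70, below the larger-branch median of 19.16. TC22 therefore held both sets of transcripts, and the part of the C-cell genes in its CALCA level was not tested. TC812, second in the branch for CALCA, had a C-cell list mean of 2.87, below the median, with 16 counts of RET, the lowest of all tumors, and 0 of SNAP25.

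**Figure D3:**
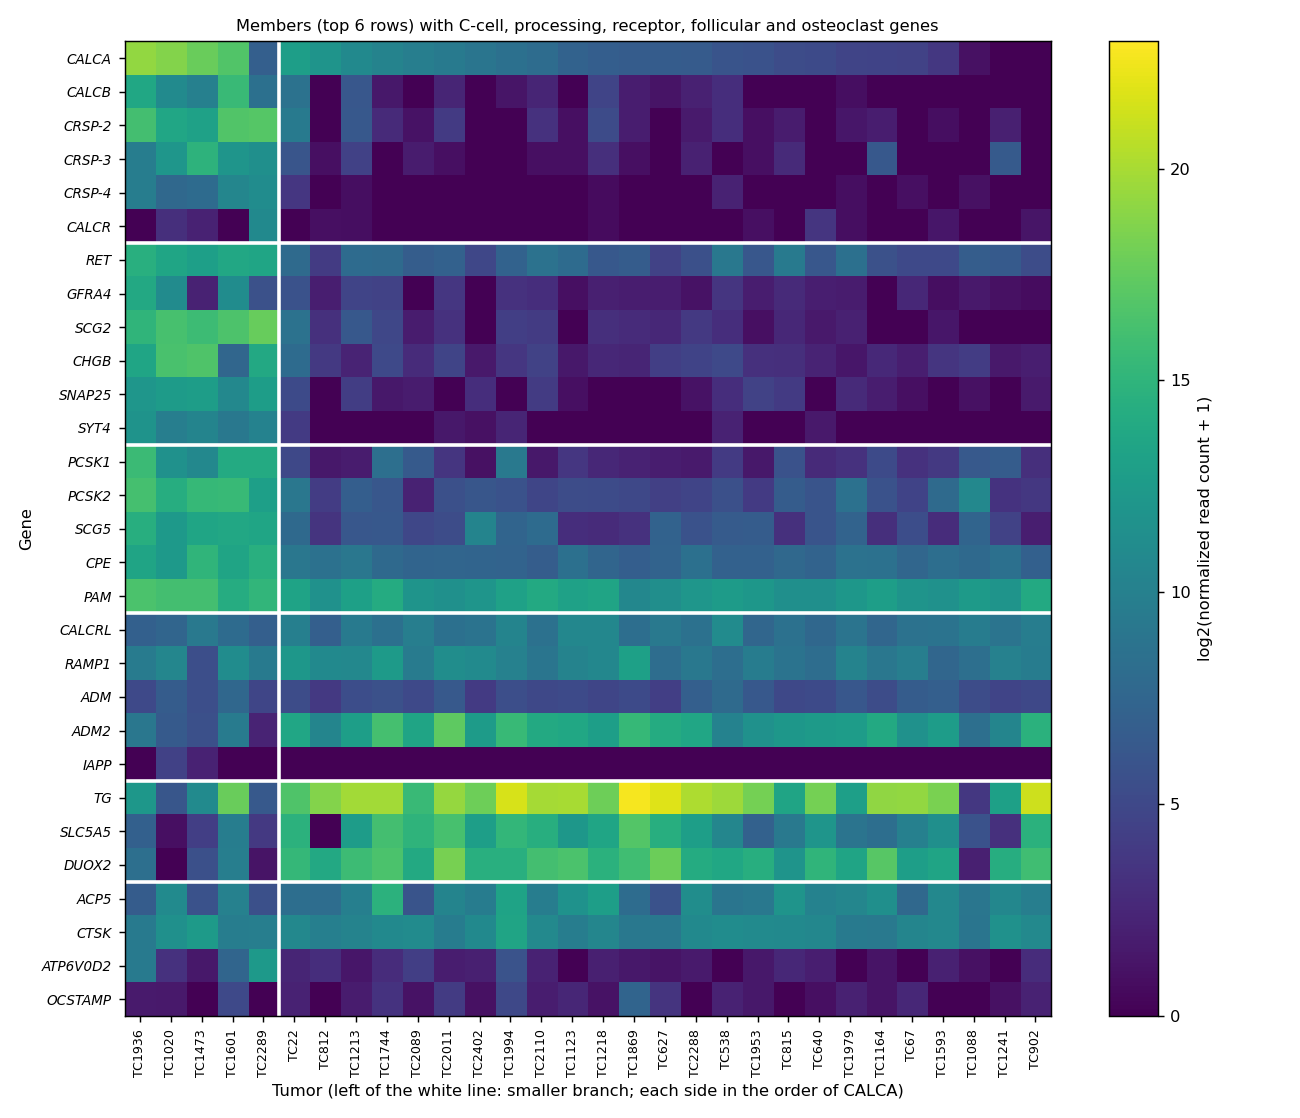
Level, as log2(normalized read count + 1), of the 6 members and of C-cell, prohormone processing, receptor and related, follicular and osteoclast genes in the 30 tumors, with the smaller branch left of the vertical white line and both sides in the order of CALCA. In the column of TC2289 CALCA is dark (6.94) beside bright CRSP-2 (16.93), SCG2 (17.64) and CALCR (10.94), and TC22 has the brightest CALCA right of the line (12.90).

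Which genes varied with CALCA among the 25 tumors of the larger branch was asked by Spearman correlation of levels over 18105 genes that reached 10 counts in 5 or more of these tumors. No gene passed an adjusted p of 0.05 after Benjamini-Hochberg adjustment, in either direction (0% of genes called), and 2056 genes had an unadjusted p under 0.05, 1118 with a positive and 938 with a negative rho. The edgeR quasi-likelihood test of the counts on the level of CALCA called 16 genes rising (0.0884%) and 71 falling (0.392%), and the Wald test of DESeq2 called 97 rising (0.536%) and 147 falling (0.812%), or 0.481% and 1.35% of genes in both directions together. Of these calls 16 rising and 68 falling genes were shared by both tools. The answer depended on the test, and single tumors moved the edgeR counts, to 5 rising and 6 falling genes without TC1088 and to 33 and 113 without TC902. Without TC22 they were 7 and 58, without TC1241 8 and 50, without TC1593 9 and 68, and without TC2011 9 and 45.

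The 3 genes with the highest rho were CACNA1I, a T-type calcium channel subunit (rho = 0.74, permutation p = 0.0001), YWHAH, a 14-3-3 protein (rho = 0.72, permutation p = 0.00012), and SCG2 (rho = 0.72, permutation p = 8e-05). Pearson's r was 0.72 for CACNA1I, 0.54 for YWHAH and 0.73 for SCG2 (permutation p = 9e-05, 0.00492 and 2e-05), and without TC902 and TC1241, the 2 tumors farthest from the median of CALCA, r was 0.79, 0.55 and 0.70. Each missed the threshold over all genes with an adjusted p of 0.195. SCG2 had 573 counts in TC22, 100 in TC1213, 31 in TC1744 and 9 in TC812, a median of 4 over the 25 tumors, and 0 in TC1241 and TC902. Its slope was 0.79 log2 units per log2 unit of CALCA by edgeR (adjusted p = 8.44e-05), and it stayed between 0.64 and 0.83 when each tumor was left out in turn, with adjusted p of 1.86e-05 to 0.0105. CHGB, another granin, was the only other of the 8 C-cell genes tested that edgeR and DESeq2 called rising. The 3 genes with the lowest rho were SLAIN1 (rho = -0.69, permutation p = 0.00024), CCDC148 (rho = -0.67, permutation p = 0.00035) and LRRC9 (rho = -0.66, permutation p = 0.00041), each with an adjusted p of 0.209. Pearson's r for SLAIN1, CCDC148 and LRRC9 was -0.72, -0.69 and -0.69 (permutation p = 5e-05, 0.00014 and 0.00021), and -0.65, -0.70 and -0.69 without the same 2 tumors.

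Within the family, CALCA and CRSP-2 gave r = 0.48 (permutation p = 0.0139) and rho = 0.36 (permutation p = 0.0761) over the 25 tumors, with an adjusted p of 0.463 over all genes, and r = 0.52 without TC902 and TC1241. By edgeR, CRSP-2 rose by 0.75 log2 units per log2 unit of CALCA (adjusted p = 0.00322), but without TC22 the slope was 0.45 and the adjusted p 0.241, so that call rested on one tumor. CALCA and CRSP-3 gave r = 0.07 (permutation p = 0.729) and rho = 0.22 (permutation p = 0.28), with an adjusted p of 0.631, and r = 0.31 without TC902 and TC1241. CRSP-2 and CRSP-3 gave r = 0.61 (permutation p = 0.0031) and rho = 0.58 (permutation p = 0.00313), with an adjusted p of 0.852 over all genes. Without TC22 and TC1213, the tumors farthest from the median of CRSP-2, r was 0.36 (permutation p = 0.0894) and rho 0.48 (permutation p = 0.0209). These were the 3 pairs computed. CRSP-2 and CRSP-3 each passed the filter with 5 tumors at 10 or more counts, the fewest it allowed. Each was at or under the floor in 19 of the 25 tumors. Most ranks of these 2 genes were therefore ties or set by counting error, and their coefficients and p-values are a description. CALCB, CRSP-4 and CALCR had at least 10 counts in 3, 1 and 1 tumors of the larger branch and were not correlated.

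**Figure D4:**
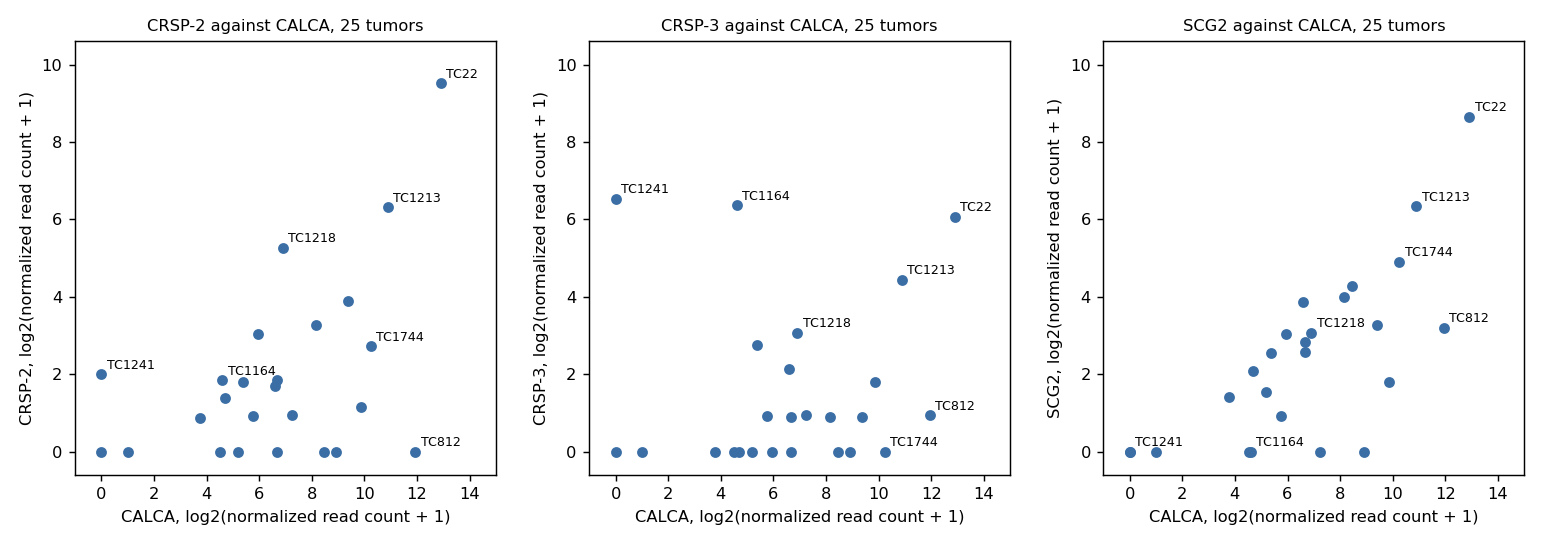
Levels of CRSP-2, CRSP-3 and SCG2 (vertical axes) against CALCA (horizontal axes), all as log2(normalized read count + 1), with one point for each of the 25 tumors of the larger branch and some tumors named. TC22 lies at the top right for CRSP-2 and SCG2, TC812 has a CALCA level of 11.94 with CRSP-2 at 0, and TC1241 has a CRSP-3 level of 6.53 with CALCA at 0.

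The lists of marker and pathway genes were read by their counts beside all genes tested, of which the median rho with CALCA was -0.00154 and 49.8% were above 0. None of the lists held a gene called by Spearman correlation. Of the 8 C-cell genes tested 6 had a positive rho (median 0.18), but RET itself had a rho of 0.21 (adjusted p = 0.657). Of the 11 follicular genes read 9 were positive (median 0.27), with a rho of 0.20 for TG (adjusted p = 0.665). RAMP1 had a rho of 0.59 (permutation p = 0.00265, adjusted p = 0.313) and CALCRL 0.04 (adjusted p = 0.942), and of the 5 related ligand and receptor genes tested 3 were positive (median 0.04). Of the 6 prohormone processing genes 4 were positive (median 0.10), with -0.16 for PCSK1 and 0.07 for PCSK2 (adjusted p = 0.738 and 0.892).

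Genes of other tissues were read in the same way, and none passed the threshold by rank. All 5 skeletal muscle genes tested had a positive rho (median 0.44, CKM 0.44, ACTA1 0.34), and edgeR called MYH2 and DESeq2 called CKM and MYH2. All 3 fibroblast genes (median 0.42, COL1A1 0.42, COL3A1 0.45) and all 3 endothelial genes (median 0.34, PECAM1 0.34, CDH5 0.45) were positive, as were both parathyroid genes tested (median 0.23). The medians were -0.09 over 5 osteoclast genes, 2 of them positive, -0.08 over 5 leukocyte genes, 2 of them positive, and -0.02 over 3 Schwann cell genes, 1 of them positive. By Spearman correlation, the adjusted p-values of CKM, ACTA1, MYH2, COL1A1, COL3A1, PECAM1 and CDH5 ran from 0.378 for MYH2 to 0.485 for PECAM1. No fibroblast, endothelial or parathyroid gene was called by edgeR or DESeq2. The part of muscle, stroma or vessels in the CALCA levels was not tested.

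The CALCA counts of tumors listed as positive and negative by calcitonin IHC overlapped. For TC1020, listed as negative, the study describes very weak staining that was first read as absent. The tumors listed as positive had 586358 (TC1936), 247126 (TC1473), 132876 (TC1601) and 95 (TC2289) counts of CALCA. Among those listed as negative, TC1020 had 439003 and TC22 had 10889, and the remaining 24 had 0 to 4296. For CRSP-2, the positive tumors had 132936 (TC1601), 97178 (TC2289), 69402 (TC1936) and 10056 (TC1473) counts, and TC1020 with 13145 was the only negative tumor in that range. In TC1020, the 2139 counts of CALCB and the 4350 of CRSP-3 also lay within the range of the positive tumors, and the 230 of CRSP-4 lay below their lowest of 297. CALCR had 1532 counts in the positive TC2289 and 0, 4 and 0 in the positive TC1936, TC1473 and TC1601. Which of the peptides the polyclonal calcitonin antibody detected in canine tissue was not tested, and a CALCA count does not separate calcitonin from CGRP transcripts.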

How the data were processed

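Total RNA was extracted from frozen canine TC, ribosomal RNA was removed, and paired-end reads were sequenced. STAR was used by the authors against CanFam3.1, and the counts they deposited are raw, per Ensembl gene and tumor. The strand setting is not given in the sources used here. Of 30424 genes 15780 carried a symbol, 0 columns belonged to no tumor and 0 pairs of tumors had identical counts.

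Counts (12288945 to 45148677 per tumor) were divided by median-of-ratios size factors over 15611 genes counted in all tumors (0.279 to 1.62), and levels are log2 with a pseudocount of 1. Tumors were clustered (Ward linkage) on genes with a mean level over 2 and a variance over 6. Correlations used the larger branch and genes with at least 10 counts in 5 tumors, with 100000 permutations for named genes (two-sided) and Benjamini-Hochberg adjustment over all genes. Python 3.11.15 (scipy 1.17.1, pandas 2.3.3), R 4.3.3, edgeR 4.0.16 and DESeq2 1.42.0 were used. The screen was tested on simulated counts with an effect of fixed size, which does not show how weak a correlation it could detect in these tumors.

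The members and lists were chosen with earlier results of these data known. Named were the members, the 3 highest and 3 lowest genes by rho, the first 2 genes of each list, and list genes in tumors with extreme member levels. CHGB and MYH2 were named for their edgeR calls, after their values were seen. Alternatives were TMM scaling, other filters and pseudocounts, Pearson's r, adjustment for library size, leaving out tumors, edgeR and DESeq2. Leaving out each tumor in turn from the edgeR test was added after seeing the data. Screens for CALCB and CALCR were planned but could not be run, since neither passed the filter. Some genes are not reported here. RefSeq gave gene names and neighbours (6 of 6 members matched).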

Additional observations from a re-analysis of the deposited data

How the results depend on the processing

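The branches held the same 30 of 30 tumors with complete linkage, TMM scaling or a pseudocount of 8. The number of genes correlated with CALCA was 0 rising and 0 falling under TMM scaling, both other filters, Pearson's r with either pseudocount, ranks adjusted for library size, and without TC1088, TC538 or TC22, with 1540 to 2666 genes at an unadjusted p under 0.05. It was 16 rising and 71 falling by edgeR and 97 rising and 147 falling by DESeq2, and 5 to 33 rising and 6 to 113 falling when each tumor was left out of the edgeR test in turn. The cause of the difference between tools was not tested. SCG2 was called in every such edgeR test, and CRSP-2 was not called without TC22.

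Small coefficients changed sign without being called. By edgeR and DESeq2 the slopes were -0.00463 and -0.000462 for TG, 0.225 and 0.228 for ACP5, 0.120 and 0.122 for PCSK1, -0.122 and -0.120 for PCSK2, and -0.0492 and -0.0517 for CRSP-3. Pearson's r with pseudocounts of 1 and 8 was -0.0293 and -0.00262 for CALCRL and -0.0111 and -0.0225 for PCSK2, and 0.0190 for PCSK1 with 8. Without TC22 rho was -0.0509 for CALCRL and -0.0291 for PCSK2, and without TC1088 it was -0.0196 for CTSK.

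Each tumor is 1 library, so the intervals hold counting error and no variation within a tumor. Depth limits the absence of a member to about the floor of 3 counts, which is highest on the normalized scale in TC538. Reads shared by related or overlapping members cannot be reassigned from gene counts. No paired analysis was possible because each tumor was of a different dog and was sequenced once.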
